A study of Mus musculus with 14 samples.

Results

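The integrated stress response genes Atf4, Ddit3, Trib3, Asns, Chac1, Sesn2, Atf3, Ddit4, Ppp1r15a and Slc7a11, were followed in lymphoid nodules of mice in which Eif3e, part of the eIF3 complex that loads ribosomes onto mRNA, can be deleted from activated B cells. They were picked by symbol and make up 10 of the 32285 genes counted. Ddit3 appears under 2 identifiers, so 11 entries were read, and the second (ENSMUSG00000116429) held 0 UMIs in every cell. UMIs are unique molecular identifiers, each standing for 1 captured transcript.

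The integrated stress response converges on translation initiation. Kinases that sense amino acid shortage, unfolded proteins, viral RNA or heme shortage phosphorylate the initiation factor eIF2, which lowers protein synthesis and favors translation of the Atf4 message. ATF4 then induces genes of amino acid supply and redox balance (Asns, Slc7a11, Chac1), a second layer of regulators (Ddit3, which encodes CHOP, Atf3 and Trib3), brakes on growth signaling (Sesn2 and Ddit4) and the phosphatase subunit GADD34 (Ppp1r15a), which reverses the phosphorylation of eIF2. Because ATF4 is controlled at translation, its mRNA level is not a direct readout of the pathway, and none of these data measure phosphorylation or protein.

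ATF4 binds, with C/EBP partners, a composite site known as the C/EBP-ATF response element, and stretches of promoter that hold it are shown because they are what several of these genes share beyond the choice of symbols. Windows from 250 bases before to 50 bases after each transcription start were taken from RefSeq (GRCm38.p6), and all 10 genes had one. The letters TGATGNAA, searched on both strands, lay in the windows of 5 genes (Atf3, Chac1, Trib3, Slc7a11 and Asns) and in 3.97% of all 32851 windows. The cAMP response element TGACGTCA, also searched on both strands, lay in the window of Ppp1r15a alone among the 10 and in 1.79% of all windows. A match describes the letters in the window and not a bound site. In the following lines, read 5′ to 3′ along the gene, capitals mark the match; where it lies on the opposite strand, its reverse complement is the one in capitals.
Asns, chr6:7693210-7693268, minus strand: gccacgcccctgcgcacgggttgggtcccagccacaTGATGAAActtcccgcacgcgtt
Chac1, chr2:119351013-119351092, plus strand: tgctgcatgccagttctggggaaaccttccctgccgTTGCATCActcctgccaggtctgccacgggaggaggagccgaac
Atf3, chr1:191183400-191183479, minus strand: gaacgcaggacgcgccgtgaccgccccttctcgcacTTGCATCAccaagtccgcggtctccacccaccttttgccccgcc
Slc7a11, chr3:50443617-50443715, minus strand: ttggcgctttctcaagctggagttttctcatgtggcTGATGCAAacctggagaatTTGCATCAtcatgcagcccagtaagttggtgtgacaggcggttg
Trib3, chr2:152344028-152344057, minus strand: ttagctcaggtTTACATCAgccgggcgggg

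The match in Asns ended 16 bases before the start, whereas those in Chac1 and Atf3 began 193 and 110 bases before it. Slc7a11 held 2 matches, one on each strand, and the match in Trib3 lay just after the start, from base 14 to base 21.

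All 7 mice were Eif3e fl/fl Cγ1Cre (cKO), with Cre expressed from the Ighg1 locus in activated B cells. From each mouse 1 single-cell RNA library and 1 library of antigen receptor transcripts were made from white nodules. B cell receptors (BCR) were profiled in 5 mice: mouse 27, with a nodule from the liver at 12 mo of age, mouse 29, from the lung at 12 mo, mouse 31, from the spleen at 13 mo, mouse 33, from the thymus at 16 mo, and mouse 34, from lung together with thymus at 9 mo. T cell receptors (TCR) were read in mouse 30, from the liver at 14 mo, and mouse 32, from the spleen at 12 mo. The sample of mouse 27 was a secondary tumor grown in a Rag2-/- recipient, whose own lineages other than B and T cells remain. The genotype given is that of the donor, so cells of the recipient in this sample need not carry it. No nodule or lymphocyte sample from a control mouse with intact Eif3e was analysed here. Clones were therefore compared with non-clonal cells of the same nodule and not with healthy tissue.

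Of 77442 deposited cells, 75503 passed the cell filters. In each nodule the dominant receptor family, called the clone, held 323 to 3976 cells in BCR mice and 2107 and 4928 cells in TCR mice. The main reference was the T-like cells that were not part of the clone, 394 to 5124 cells in each of the 7 mice, which in TCR mice were those with another TCR. In BCR mice, B-like cells with a BCR call of another family formed a smaller reference of 11 to 40 cells in 4 mice, and of 0 cells in mouse 27. B clones carried summed B cell markers at 1733.0 to 3643.2 CPM and T clones carried T cell markers at 2122.7 and 3353.3 CPM. The reference T-like cells carried T cell markers at 1343.8 to 3483.4 CPM. CPM is the UMIs of a gene scaled to a total of 1000000 UMIs, taken here over the UMIs summed across all cells of a population in 1 mouse. Median UMIs per cell were 9367 to 13736 in B clones, 1992 and 3781.5 in T clones and 1189 to 3439 in reference cells. B-like cells without a receptor call had medians of 1547.5 to 6662.5, below the clone in each BCR mouse. In BCR mice clone cells had a BCR call and reference T-like cells had none. Depth, receptor call and cell type can therefore not be told apart there. From 96 to 286 cell barcodes were shared by any 2 libraries.

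Some clone-called cells clustered with another lineage, which bears on several values given later. They made up 328 of 4928 clone cells (6.66%) in mouse 32, of which 214 lay in erythroid-like and 103 in neutrophil-like clusters, and 28 of 323 (8.67%) in mouse 29, of which 16 were neutrophil-like. In the other 5 mice they made up 0.478% to 1.75%. Summed neutrophil markers of all clone cells were 2359.7 CPM (mouse 32), 947.2 CPM (mouse 30) and 572.0 CPM (mouse 29), and erythroid markers reached 1670.1 CPM in mouse 32. For every gene that turned on these cells, the level is also given for clone cells in clusters of their own lineage.

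Eif3e itself was counted at 231.8, 242.9, 169.3, 222.2 and 188.8 CPM in the B clones of mice 27, 29, 31, 33 and 34, and at 146.0 and 142.3 CPM in the T clones of mice 30 and 32. In the reference T-like cells of the 7 mice it lay between 116.4 and 183.2 CPM. These counts do not check excision, since transcripts that lack the floxed part can still be counted. The paper reports that tumor B and CD4+ T cells lacked the YFP reporter of Cre activity. It also reports eIF3e protein in them at normal amounts, so the clones are not to be read as Eif3e-deleted cells. The fitted difference between clones and reference T-like cells was 0.28 ± 0.20 on the log2 scale (SE, 7 mice; adjusted p = 0.319, edgeR's quasi-likelihood test with Benjamini-Hochberg adjustment).

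The first question was whether clones differed in stress response transcripts from the non-clonal T-like cells beside them. In 5 mice this sets B cells against T cells. Only Atf3 differed past the threshold, and it was lower in the clones. Atf4 and Ddit3, the transcription factors at the center of the pathway, had fitted differences close to 0. Of the 10 genes, 8 had enough counts to be tested (Chac1 and Trib3 did not), with 0 higher and 1 lower, whereas 2120 of all 11657 genes tested (18.2%) passed the threshold of an adjusted p of 0.05, 8.48% higher and 9.7% lower. The median log2 fold change was 0.03 over the 8 genes and 0.05 over all genes tested.

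**Figure D1:**
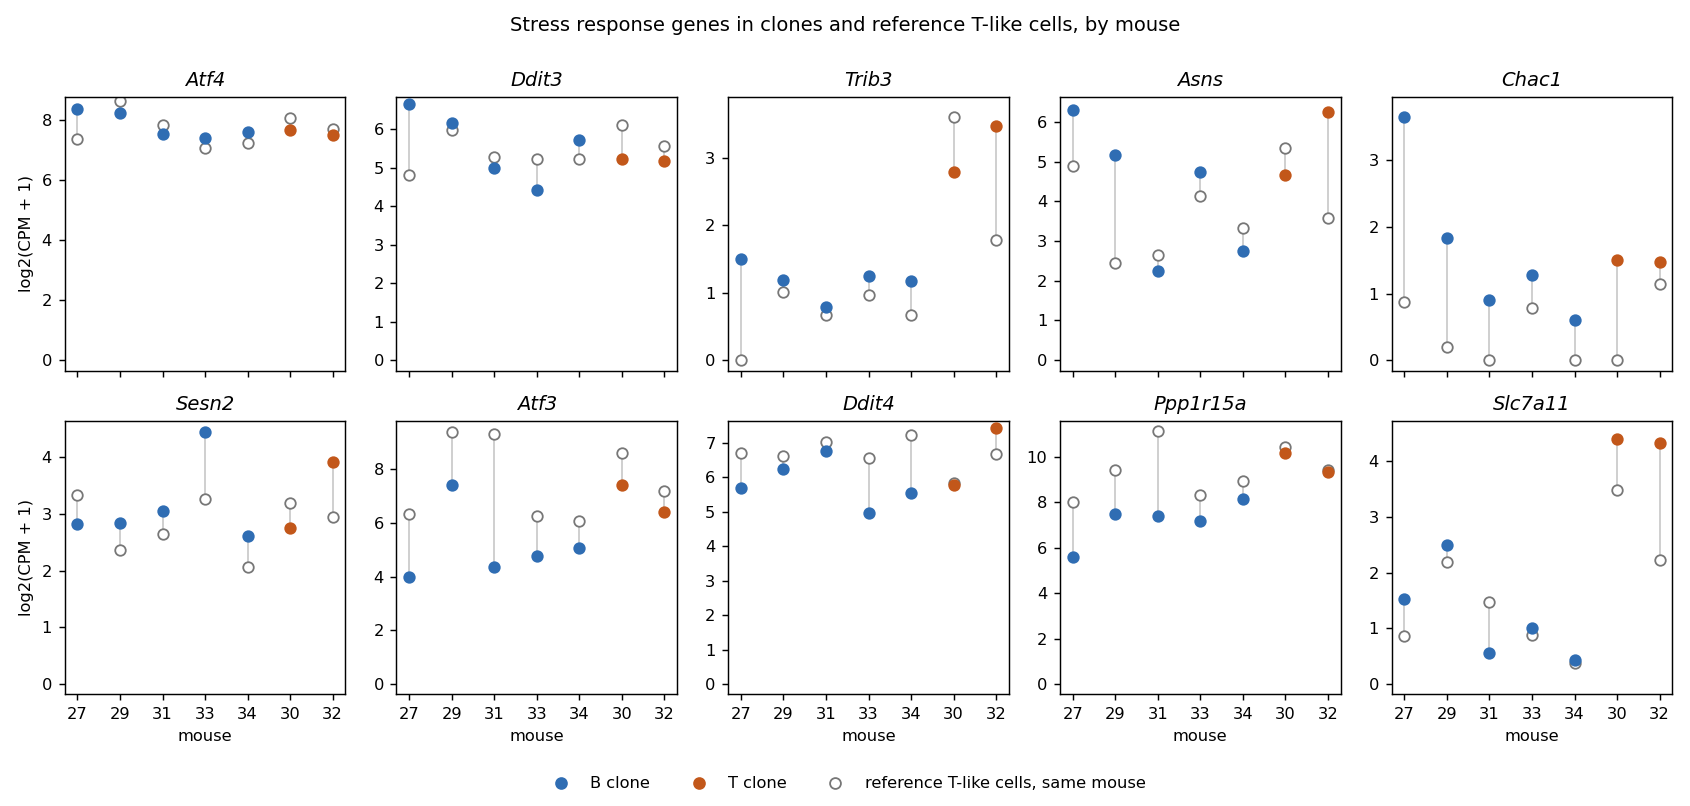
Level of each of the 10 genes in the clone (blue, B clone; orange, T clone) and in reference T-like cells (open circles) of each of the 7 mice, as log2(CPM + 1) of summed UMIs, with grey lines joining the populations of a mouse. The clone lies below the reference in every mouse for Atf3 and Ppp1r15a, while Atf4 and Ddit3 lie on either side of it. For Ppp1r15a in mouse 32 the difference is within counting error.

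Atf4 stood at 329.7, 299.6, 182.1, 167.5 and 189.4 CPM in the B clones of mice 27, 29, 31, 33 and 34, and at 200.6 and 177.4 CPM in the T clones of mice 30 and 32. In the reference T-like cells of the same mice it stood at 162.8, 393.2, 223.9, 132.4, 150.1, 266.6 and 203.8 CPM. The clone was higher in mice 27, 33 and 34 and lower in the other 4, and the populations overlapped. The fitted log2 difference was 0.06 ± 0.20 (SE, 7 mice; edgeR adjusted p = 0.852).

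Depth changed how Atf4 looked per cell. At full depth, 89.7% of the clone cells of mouse 27 and 23.8% of its reference cells held an Atf4 UMI, and the clone had the larger share in 6 of 7 mice. After each cell was thinned to 1000 UMIs, the shares in mouse 27 were 27.8% and 14.4%, and the clone had the larger share in 3 of 7 mice, the same 3 that were higher in CPM. Thinning left out 0 to 103 clone cells and 2 to 1771 reference cells per mouse that held fewer UMIs.

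Ddit3, which encodes the proapoptotic transcription factor CHOP, stood at 100.1, 71.3, 30.9, 20.5 and 52 CPM in the B clones of mice 27, 29, 31, 33 and 34, and at 36.3 and 35.2 CPM in the T clones. The reference T-like cells held 27.3, 62.6, 37.6, 36.7 and 36.2 CPM in BCR mice and 68.2 and 46.5 CPM in mice 30 and 32. The clone was higher in mice 27, 29 and 34 and lower in the other 4. The fitted log2 difference was 0.00 ± 0.32 (SE; edgeR adjusted p = 0.994), although single mice ran from 0.533 to 3.67 times the reference.

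Atf3, a repressor that is also an immediate early gene, stood at 15, 169.3, 19.4, 26.2 and 32 CPM in the B clones of mice 27, 29, 31, 33 and 34 and at 168.5 and 83.6 CPM in the T clones. The reference T-like cells held 78.5, 657.7, 640.6, 75 and 65.7 CPM in BCR mice and 384.7 and 143.2 CPM in mice 30 and 32. The clone was lower in 7 of 7 mice, a pattern shared by 7.36% of all genes tested, and by 1.71-fold in mouse 32 to 33-fold in mouse 31. The fitted log2 fold change was -1.89 ± 0.47 (SE), a 3.69-fold lower level, with an edgeR adjusted p of 0.0315.

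The Atf3 call was close to the threshold. It was lost without mouse 27 (adjusted p = 0.0844), mouse 29 (0.0667), mouse 33 (0.0679) or mouse 34 (0.0652), with fitted values from -2.07 to -1.47 over all 7 mice left out in turn, and without mouse as a block (-2.02, 0.0838). With only clone cells in clusters of their own lineage it was kept, at -2.31 ± 0.53 (0.0333).

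Ppp1r15a, the stress-induced phosphatase subunit, followed the same direction without passing the threshold. The B clones held 47.1, 175.2, 164.5, 144.4 and 280.6 CPM in mice 27, 29, 31, 33 and 34, against 252.8, 685.7, 2240.8, 317.3 and 490.5 CPM in their reference T-like cells. The T clones of mice 30 and 32 held 1149.0 and 648.1 CPM against 1363.7 and 673.8 CPM. The clone value lay below the reference in 7 of 7 mice, by 1.75- to 13.6-fold in BCR mice and by 1.19- and 1.04-fold in TCR mice.

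The fitted log2 value of Ppp1r15a was -1.44 ± 0.44 (SE; edgeR adjusted p = 0.0513), and DESeq2 gave an adjusted p of 0.00348. On simulated counts of this comparison, 12.2% of DESeq2 calls and 3.82% of edgeR calls were false. The simulation changed 200 of 11660 genes, gave every gene the same dispersion and held no effect of mouse. These rates therefore need not hold for the data. The difference between the contrasts of TCR and BCR mice, tested as an interaction, was 1.66 ± 0.75 (adjusted p = 0.324).

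The dissociation and immediate early list moved in the same direction as Atf3. Nodules were kept in storage solution, sent away and dissociated with a tissue kit before capture, and dissociation is known to induce such genes. Of 19 listed genes (Fos, Jun, Egr1, heat shock genes and others), 16 were lower in the clones and 0 higher. That is 84.2% called, against 18.2% of all genes tested. The median log2 fold change was -1.66 against 0.05 over all genes. Hspa1b, a heat shock protein of the Hsp70 family, had a log2 fold change of -4.70 ± 1.13 (edgeR adjusted p = 0.0287), and Socs3, a feedback inhibitor of cytokine signaling, of -3.70 ± 0.70 (0.0155). The summed list stood at 4467.1, 9292.7, 11226, 5388.1 and 8172.2 CPM in the B clones of mice 27, 29, 31, 33 and 34, and at 11837 and 15342 CPM in the T clones. In the reference cells it stood at 10763 to 43373 CPM, higher than in the clone in every mouse and highest in mice 29 and 31, where reference Atf3 was also highest. The part of dissociation in the Atf3 and Ppp1r15a values was not tested.

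Asns, asparagine synthetase, stood at 78, 35.1, 3.71, 26 and 5.72 CPM in the B clones of mice 27, 29, 31, 33 and 34, a 21-fold range. The T clones of mice 30 and 32 held 24.5 and 76 CPM. The reference T-like cells of the 7 mice lay between 4.45 and 39.7 CPM, with a median of 11 CPM. The clone was higher in mice 27, 29, 33 and 32 and lower in mice 31, 34 and 30. The fitted log2 value was 0.85 ± 0.54 (SE; edgeR adjusted p = 0.267).

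Chac1, a glutathione-degrading enzyme, was sparse. The B clones held 210, 10, 42, 24 and 9 UMIs in mice 27, 29, 31, 33 and 34 (11.6, 2.57, 0.865, 1.43 and 0.514 CPM), and the T clones of mice 30 and 32 held 10 and 50 UMIs (1.84 and 1.79 CPM). The reference T-like cells of mice 27, 29, 33 and 32 held 1, 1, 12 and 2 UMIs, and those of mice 31, 34 and 30 held 0, which allows up to 1.76, 0.876 and 3.05 CPM. The CPM was nominally higher in the clone in 7 of 7 mice, as it was for 9.78% of the genes tested, but in mice 31, 34 and 30 the clone lay below the limit of its reference, and in mouse 32 clone cells of T-like clusters held 0.821 CPM, below the reference at 1.22 CPM. Over all clone cells, the share of cells with a UMI after thinning to 1000 UMIs was also nominally higher in 7 of 7 mice (0.0643% to 1.04% of clone cells against 0% to 0.0784% of reference cells).

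Chac1 fell below the count filter of the fit. With no filter its log2 fold change was 2.59 with an edgeR adjusted p of 0.0439, a value that rests on references at or near 0 UMIs and depends on how such counts are treated. The intervals and limits given for counts are 95% exact Poisson intervals and a floor of 3 UMIs, and they cover counting error only.

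Sesn2, which restrains mTORC1 when leucine is short, stood at 6.11, 6.16, 7.33, 20.9 and 5.14 CPM in the B clones of mice 27, 29, 31, 33 and 34, and at 5.72 and 14.2 CPM in the T clones. Reference T-like cells held 3.21 to 9.09 CPM, so only the clones of mice 33 and 32 lay above every reference value. The fitted log2 value was 0.47 ± 0.31 (SE; edgeR adjusted p = 0.286).

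Ddit4, which encodes the mTORC1 inhibitor REDD1, stood at 50.7, 74.1, 107.1, 30.3 and 45.8 CPM in the B clones and at 53.8 and 172.5 CPM in the T clones. The reference cells of the 7 mice ranged from 56 to 149.8 CPM, and the clone was below its own reference in 6 of 7 mice, mouse 32 being the exception. The fitted log2 value was -0.62 ± 0.29 (SE; edgeR adjusted p = 0.152). Ddit4 also responds to glucocorticoids and hypoxia, and of 13 genes listed for those signals 2 were higher (Bnip3 and Pgk1) and 2 lower (Per1 and Slc2a1). That is 30.8% called, against 18.2% of all genes tested.

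**Figure D2:**
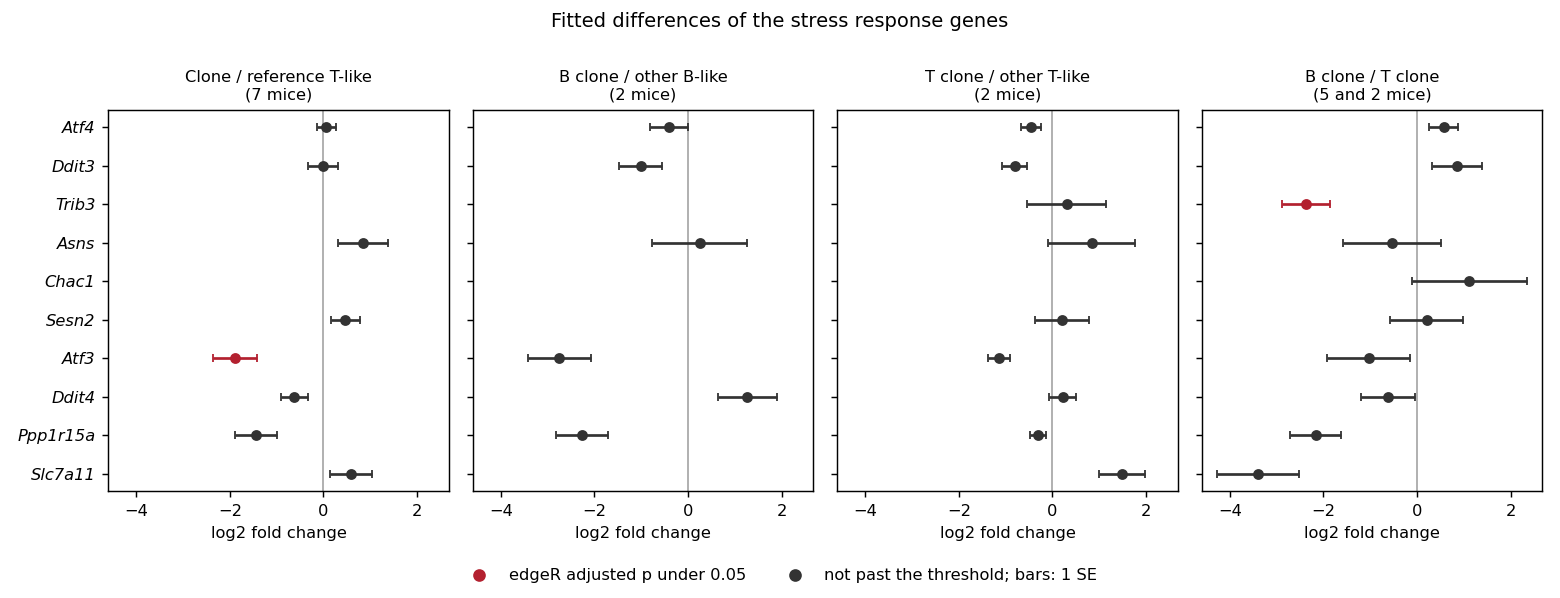
Fitted log2 fold change (x axis) of each gene in 4 comparisons, with bars of 1 SE; red marks an edgeR adjusted p under 0.05. Only Atf3 between clones and reference T-like cells (-1.89) and Trib3 between B and T clones (-2.37) are red, and Sesn2 is not drawn in the second panel because its reference cells held 0 UMIs.

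The second question was how B clones compared with other B-like cells that carried a BCR call. Only mice 29 and 31 had at least 20 such cells (32 and 40), and 15 of 9756 genes tested (0.154%) passed the threshold, 0.0103% higher and 0.144% lower in the clones. None of the 7 stress response genes tested did, while 2 of them, and 942 genes in all, had an unadjusted p under 0.05. Atf3 stood at 169.3 and 19.4 CPM in the clones of mice 29 and 31 and at 345.2 and 381.5 CPM in the other B-like cells. Its fitted log2 value was -2.75 ± 0.68 (SE; edgeR adjusted p = 0.288).

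Ppp1r15a stood at 175.2 and 164.5 CPM in these 2 clones and at 334.4 and 1708.9 CPM in the other B-like cells, for a fitted log2 value of -2.26 ± 0.56 (SE; edgeR adjusted p = 0.288). Ddit3 stood at 71.3 and 30.9 CPM against 102.5 and 76.3 CPM (-1.01 ± 0.46, edgeR adjusted p = 0.54), and Atf4 at 299.6 and 182.1 CPM against 269.7 and 312.8 CPM (-0.41 ± 0.41, adjusted p = 0.807). Ddit4 ran the other way, with 74.1 and 107.1 CPM against 43.1 and 22.9 CPM (1.27 ± 0.63, adjusted p = 0.572).

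With a minimum of 10 reference cells, mice 33 and 34 joined and 74 genes passed the threshold, among them Atf3 at -2.80 (edgeR adjusted p = 0.0153). The Atf3 value of the clone lay below that of the other B-like cells in all 4 mice, but in the 2 added mice the reference Atf3 UMIs came from 2 of 11 cells (48 UMIs, mouse 33) and 2 of 15 cells (14 UMIs, mouse 34). Ppp1r15a was lower in the clone in 3 of the 4 mice and stood at 280.6 against 255.2 CPM in mouse 34. DESeq2 on mice 29 and 31 called more genes than edgeR, Atf3 (adjusted p = 0.00412) and Ppp1r15a (0.00461) among them, and its false calls were not simulated for this comparison. The other B-like cells held summed plasma cell markers at 410.8 to 15672 CPM, against 280.1 to 1836.2 CPM in B clones, and the part of plasma cells in these values was not tested. Simulated 4-fold changes were recovered in this 2-mouse comparison for 16% of genes and 2-fold changes for 0%. With the simulated dispersion, a difference of that size would mostly have been missed.

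B-like cells without any receptor call were near the clone of the same mouse for some genes and apart from it for others. In mouse 27 they held 281.5 CPM of Atf4, 98.2 CPM of Ddit3, 61.7 CPM of Asns and 10.5 CPM of Chac1. Their Sesn2 was 21.8 CPM in mouse 33 and 6.14 to 8.74 CPM in the other 4 BCR mice. Atf3 differed from the clone in mouse 33 (54.6 against 26.2 CPM) and in mouse 29 (102.6 against 169.3 CPM), Ppp1r15a in mouse 33 (242.8 against 144.4 CPM) and Slc7a11 in mouse 31 (2.14 against 0.474 CPM). Whether these cells belong to the clone cannot be told from a missing call.

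The third question was the same comparison in TCR mice, between T clones and T-like cells with another TCR. None of the 11549 genes tested passed the edgeR threshold, 0 of the 9 stress response genes among them. At an unadjusted p under 0.05 there were 1036 genes, 3 of these 9 included (Atf3, Ddit3 and Slc7a11), and DESeq2 called 235 genes, none of the 10 among them (Atf3, adjusted p = 0.0773). The fitted log2 values were -1.14 ± 0.23 for Atf3 (edgeR adjusted p = 0.309), -0.81 ± 0.27 for Ddit3 (0.501) and -0.46 ± 0.21 for Atf4 (0.645), with the clone lower in both mice for each of the 3 genes. Only 18% of simulated 4-fold changes were recovered at this size.

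Slc7a11, the cystine-glutamate antiporter subunit, stood at 20.1 and 19.1 CPM in the T clones of mice 30 and 32 against 10.2 and 3.67 CPM in their other T-like cells (log2 1.49 ± 0.49, edgeR adjusted p = 0.497). Most of these UMIs came from few cells. The 16 and 328 clone-called cells in clusters of other lineages held 74.3% and 85.9% of them, and single cells held up to 48 and 49 UMIs. In clone cells of T-like clusters the levels were 5.28 and 3.62 CPM, and the fitted log2 value turned to -0.62 ± 0.55 (adjusted p = 0.819).

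**Figure D3:**
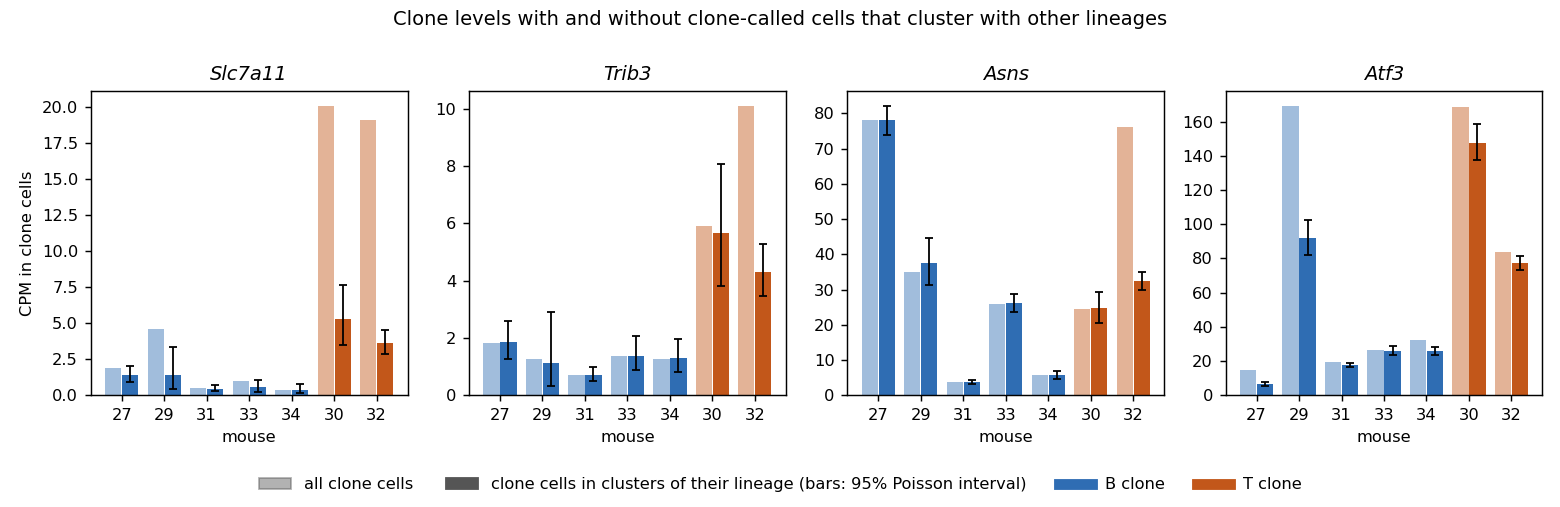
Level (CPM) of 4 genes in all clone cells (pale bars) and in clone cells of clusters of their own lineage (dark bars, with 95% Poisson intervals) for each mouse, B clones in blue and T clones in orange. Slc7a11 falls from 20.1 and 19.1 to 5.28 and 3.62 CPM in the T clones, and Asns from 76 to 32.4 CPM in mouse 32.

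In mouse 32 the same cells held 68.4% of the Asns UMIs (76 CPM with them and 32.4 CPM without), 68.4% of the Trib3 UMIs (10.1 and 4.3 CPM) and 66% of the Chac1 UMIs (1.79 and 0.821 CPM). Erythroid-like cells of that mouse held 309.6 CPM of Asns and 33.5 CPM of Trib3. Atf3 was affected in B clones, where 57.9% of its UMIs in mouse 27 and 51.1% in mouse 29 came from such cells, and the levels without them were 6.41 and 91.8 CPM. Atf4, Ddit3, Ddit4, Ppp1r15a and Sesn2 changed less, with 9.2% to 35.6% of their UMIs in such cells in mouse 32 and levels of 162.9, 31.9, 209.7, 793.9 and 12.3 CPM without them.

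The B and T clones were then compared with each other. Trib3, a pseudokinase induced by ATF4 and CHOP that restrains AKT signaling, was lower in B clones and was the only one of the 10 genes past the threshold. Over all genes, 1022 of 15200 passed (6.72%), 2.03% higher and 4.69% lower in B clones. The median log2 fold change was -0.58 over the 10 genes and 0.08 over all genes tested. Scaling by plain library size moved the median of all genes to -0.20 and the split to 196 higher and 1022 lower. In raw CPM, 0 of the 10 genes lay higher in every B clone than in both T clones (9.93% of all genes did), and 3, Trib3, Ppp1r15a and Slc7a11, lay lower (23% of all genes did).

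Trib3 stood at 1.82, 1.28, 0.721, 1.37 and 1.26 CPM in the B clones of mice 27, 29, 31, 33 and 34, from 5 to 35 UMIs each. In the T clones of mice 30 and 32 it stood at 5.9 CPM (32 UMIs) and 10.1 CPM (282 UMIs). Every B clone lay below both T clones. The fitted log2 fold change was -2.37 ± 0.52 (SE, 5 and 2 mice; edgeR adjusted p = 0.0401), a 5.17-fold lower level in B clones.

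In clone cells of their own lineage the Trib3 levels were 0.702 to 1.84 CPM in B clones and 5.65 and 4.3 CPM in T clones, still without overlap, and the fitted value was -1.73 ± 0.51 (edgeR adjusted p = 0.0665). The part of the neutrophil and erythroid markers that remained in these T clone cells was not tested. The call was also lost without mouse 27 (0.0725), 31 (0.0634), 33 (0.0587), 34 (0.0851), 30 (0.123) or 32 (0.254), and it held without mouse 29.

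Ppp1r15a was 47.1 to 280.6 CPM in B clones and 1149.0 and 648.1 CPM in T clones. The fitted log2 value was -2.17 ± 0.54 (SE; edgeR adjusted p = 0.0547), and it passed the threshold with clone cells of their own lineage (-2.36 ± 0.54, 0.0329). Slc7a11 was 0.343 to 4.62 CPM in B clones against 20.1 and 19.1 CPM (-3.40 ± 0.87, adjusted p = 0.0581), and with clone cells of their own lineage 0.352 to 1.42 CPM against 5.28 and 3.62 CPM (-2.25 ± 0.67, adjusted p = 0.0663). The other 7 genes had adjusted p-values from 0.277 (Atf4, 0.57 ± 0.31) to 0.885 (Sesn2, 0.21 ± 0.78). Lineage, age, organ and the number of T clones cannot be told apart in this comparison, and the reference T-like cells of the TCR mice held 11.2 and 2.45 CPM of Trib3 as well.

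None of the 8 stress response genes tested differed between TCR and BCR mice in the contrast of clone with reference T-like cells, in a fit where 270 of 11657 genes (2.32%, 1.87% higher and 0.446% lower in TCR mice) did by edgeR and 1 of the 8 (Ddit4, 1.18 ± 0.51, adjusted p = 0.306) had an unadjusted p under 0.05.

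Among the 5 B clones, 4 of the genes ranked the mice alike at the top. Atf4, Ddit3, Asns and Chac1 each had their highest level in mouse 27 and their next highest in mouse 29. The share of all genes that place these mice in this order was not computed. For Atf4 the 95% counting intervals were 321.4 to 338.2 CPM in mouse 27, 282.7 to 317.3 CPM in mouse 29 and 183.0 to 195.9 CPM in mouse 34, the next in order. For Chac1 they were 10 to 13.2 CPM in mouse 27, 1.23 to 4.72 CPM in mouse 29 and 0.918 to 2.13 CPM in mouse 33. The place of mouse 29 was therefore not resolved for Chac1. In the reference T-like cells of BCR mice none of Atf4, Ddit3 and Asns had this order. Their Atf4 and Ddit3 were highest in mouse 29, with Ddit3 lowest in mouse 27. Their Asns was highest in mouse 27 (28.9 CPM) and lowest in mouse 29 (4.45 CPM), and Chac1 was too sparse to order. Trib3 was also highest in mouse 27, Atf3 and Slc7a11 in mouse 29, Sesn2 in mouse 33, Ddit4 in mouse 31 and Ppp1r15a in mouse 34. With 1 nodule per mouse these are descriptions of 5 clones, and mouse 27 is also the only secondary tumor.

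The spread between the B clones was smallest for Atf4 among the 10 genes and differed widely among the others. The spread over all genes was not computed. The highest B clone exceeded the lowest 1.97-fold for Atf4, 2.52-fold for Trib3, 3.54-fold for Ddit4, 4.06-fold for Sesn2 and 4.89-fold for Ddit3. The ratio was 5.95 for Ppp1r15a, 11.3 for Atf3, 13.5 for Slc7a11, 21 for Asns and 22.5 for Chac1, whose lowest value rested on 9 UMIs. The Slc7a11 spread rested on mouse 29, where 72.2% of its UMIs lay in clone-called cells of other lineages. In clone cells of B-like clusters Slc7a11 ran from 0.352 to 1.42 CPM and Atf3 from 6.41 to 91.8 CPM. In the reference T-like cells of BCR mice, Atf4 spread 2.97-fold. Within a clone the genes were also unevenly spread. In mouse 27, 1598 of 1782 clone cells (89.7%) held an Atf4 UMI, 869 a Ddit3 UMI, 782 an Asns UMI and 160 a Chac1 UMI, and the 10% of cells with the most UMIs of a gene held 27.8% of the Atf4, 43% of the Ddit3 and 45.3% of the Asns UMIs.

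Genes around the pathway were read from prepared lists in the comparison of clones with reference T-like cells. Of 19 genes for eIF2 kinases, eIF2 and its regulators, 2 were higher in clones and 1 lower (15.8%, against 18.2% of all genes), with a median log2 fold change of 0.26. The 2 were Eif2b3 (1.00 ± 0.26, edgeR adjusted p = 0.0336) and Eif2b5 (0.76 ± 0.20, 0.0377), both subunits of the exchange factor that recharges eIF2, and the lower one was Nck1 (-0.66 ± 0.14, 0.0213), an adaptor. None of the 4 kinase genes, Eif2ak1 to Eif2ak4, passed the threshold.

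Of 45 listed genes of amino acid metabolism and other ATF4 targets, 37 were tested, 6 were higher in clones and 1 lower, with a median of 0.50. The share called was 18.9%, close to the 18.2% of all genes. The higher genes with the largest values were Cth, which makes cysteine from cystathionine (2.80 ± 0.52, edgeR adjusted p = 0.0143), Shmt2, a mitochondrial serine hydroxymethyltransferase (1.23 ± 0.33, 0.0373), and Eif4ebp1, which binds the cap-binding factor eIF4E (1.21 ± 0.32, 0.0368). Slc3a2, the heavy chain that partners Slc7a11 and other amino acid carriers, was lower (-1.22 ± 0.21, 0.0117).

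**Figure D4:**
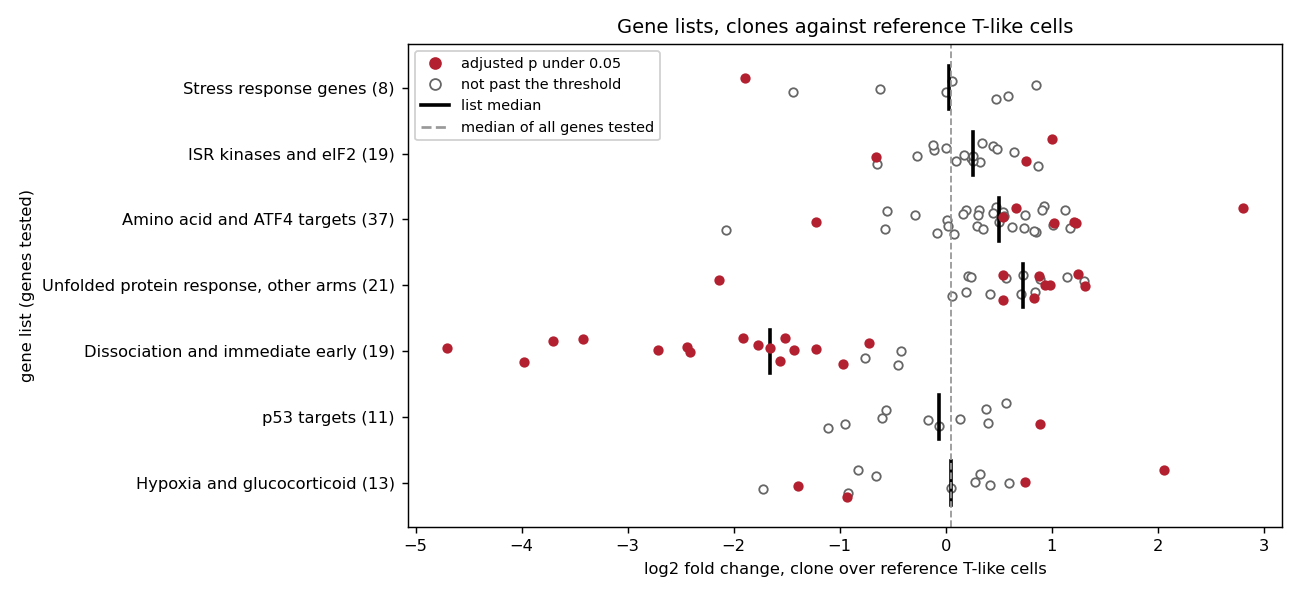
Log2 fold change (x axis) of every tested gene in the 10-gene set and in 6 lists, clones over reference T-like cells; red points have an edgeR adjusted p under 0.05, black bars are list medians and the dashed line is the median of all genes tested. The dissociation and immediate early list lies to the left (median -1.66), and the unfolded protein response list mostly to the right (median 0.73).

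The other arms of the unfolded protein response, run by IRE1 and ATF6, were listed with 21 genes. Of these, 8 were higher and 1 lower in clones (42.9% called, against 18.2% of all genes tested), with a median of 0.73. Sdf2l1 (1.31 ± 0.33, edgeR adjusted p = 0.0339), Pdia6 (1.25 ± 0.29, 0.026) and Canx (0.98 ± 0.23, 0.0272), all folding factors of the endoplasmic reticulum, were among the higher genes, and Ern1, which encodes IRE1, was the lower one (-2.14 ± 0.60, 0.0428). The summed list stood at 4155.9 to 7032.6 CPM in B clones and at 2903.8 to 4045.5 CPM in the reference cells of BCR mice. In T clones it stood at 3048.3 and 3595.2 CPM, against 2914.5 and 3543.5 CPM in their reference cells. Plasma cell markers moved with it, at 280.1 to 1836.2 CPM in B clones, 48.8 and 70.4 CPM in T clones and 91.1 to 202.5 CPM in reference cells, and their part in it was not tested.

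Between B and T clones, 5 of the 21 genes were higher in B clones and 0 lower (23.8% called, against 6.72% of all genes tested). Herpud1 (2.47 ± 0.48, edgeR adjusted p = 0.0293) and Syvn1 (2.04 ± 0.33, 0.0174) of endoplasmic reticulum-associated degradation were among them. Eif2s1, the eIF2 subunit that the kinases phosphorylate, was also higher in B clones (1.51 ± 0.34, 0.0429). Of 11 tested p53 targets, 1 was higher in clones than in reference T-like cells (Sesn1, 0.89 ± 0.18, adjusted p = 0.0182). That is 9.09% called, against 18.2% of all genes tested. In the 2-mouse comparisons 0 genes of any list passed the edgeR threshold, while 13 of 19 dissociation and immediate early genes in mice 29 and 31 and 15 of 19 in mice 30 and 32 were lower in the clone at an unadjusted p under 0.05. Over all genes tested, 942 of 9756 and 1036 of 11549 had such a p in either direction. DESeq2 results for single lists were not computed.

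Across the cell classes of the nodules, most of the 10 genes were not at their highest in lymphocytes, and neighboring classes in each order overlapped except where stated. In mouse 27 the classes other than lymphocytes can hold cells of the Rag2-/- recipient. Slc7a11 had its highest median in neutrophil-like cells (515.2 CPM, range 83.5 to 954.0 over 6 mice), followed by macrophage- or monocyte-like cells (169.1 CPM, 42.1 to 186.7 over 7 mice) and fibroblast-like cells (72.6 CPM, 15.8 to 119.6 over 3 mice). B clones, at a median of 1.01 CPM (0.343 to 4.62 CPM), came near the end of that order. The other BCR-called B-like cells of mice 29 and 31 held 0 Slc7a11 UMIs, which allows up to 16.2 and 22.9 CPM, so they could not be placed in it. Neutrophil-like cells also had the highest medians of Ddit3 (101.2 CPM), Chac1 (14.5 CPM) and Sesn2 (48.8 CPM), each overlapping the next class.

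**Figure D5:**
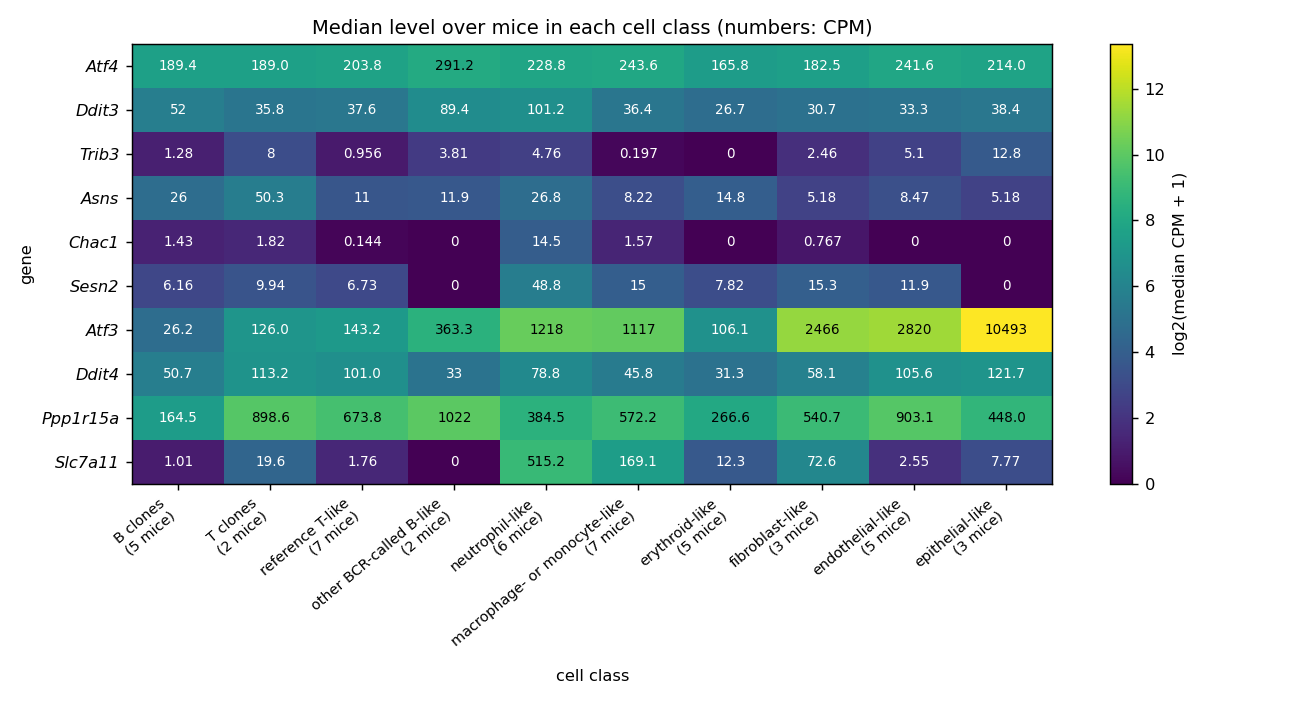
Median level over mice of each gene (rows) in clones, reference cells and other cell classes (columns, with the number of mice); color is log2(median CPM + 1) and the numbers are CPM. Slc7a11 is highest in neutrophil-like cells (515.2) and Atf3 in epithelial-like cells (10493), while Atf4 differs little between classes.

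Atf3 had its highest median in epithelial-like cells (10493 CPM, 3162.2 to 13473 over 3 mice) and its lowest in B clones (26.2 CPM, 15 to 169.3). Between macrophage- or monocyte-like cells (935.0 to 13950 CPM) and other BCR-called B-like cells (345.2 and 381.5 CPM) the ranges did not overlap. Ppp1r15a was also lowest in B clones (164.5 CPM) and reached 2396.8 CPM in the macrophage- or monocyte-like cells of 1 mouse. Atf4 medians lay between 165.8 CPM in erythroid-like cells and 291.2 CPM in other BCR-called B-like cells, with overlap throughout. Without receptor, hemoglobin and mitochondrial genes in the total, the erythroid-like median was 234.2 CPM and no longer the lowest, fibroblast-like cells being lowest at 184.6 CPM. Asns reached its highest single value in the erythroid-like cells of mouse 32 (309.6 CPM), whereas the erythroid-like cells of the other 4 mice held 0 to 88.1 CPM.

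Likeness between genes was read over 45 sums, each of 1 cell class in 1 mouse, among 9113 genes with a mean of at least 10 CPM. The points share mice, libraries and depth, so the values are descriptions. The genes most like Slc7a11 in log2(CPM + 10) were Acod1 (r = 0.90), Clec4e (0.90) and Nfam1 (0.89), all expressed by myeloid cells. Those most like Atf4 were Sde2 (0.76), Hspa5 (0.74), which encodes the endoplasmic reticulum chaperone BiP, and Dyrk1a (0.73), and those most like Ddit3 were Sde2 (0.75), Hnrnph2 (0.73) and Resf1 (0.73). Asns was most like Car1 (0.72), an erythroid carbonic anhydrase, Ruvbl2 (0.71) and Tcrg-C1 (0.71). Chac1 was most like Trim30b (0.73), Gm13986 (0.73) and Pde1a (0.72), and Trib3 like Kansl1l (0.57), Phactr4 (0.57) and Ankrd28 (0.56).

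Among themselves, Chac1 and Sesn2 (r = 0.74), Sesn2 and Slc7a11 (0.74), Atf4 and Ddit3 (0.68), Atf3 and Ppp1r15a (0.58) and Chac1 and Slc7a11 (0.57) had the highest values. Atf4 with Asns (0.18) and Atf4 with Slc7a11 (0.07) were far lower over the same 45 sums.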

How the data were processed

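Gene UMI counts per cell, raw and not normalised as deposited, came from 7 droplet libraries, 1 per mouse. The submitters' notes name the genome build GRCm38 (mm10). The aligner, annotation and cell calling are not given in the sources used here. The labels name a 5′ kit and the methods a 3′ kit, which was not settled. Cells with more than 200 UMIs, more than 100 genes and at most 10% mitochondrial UMIs were kept and clustered (scanpy 1.11.5, leidenalg 0.10.2). Clusters were named from marker genes, and clones from the deposited receptor calls. A cell joined the clone if it was in the largest clonotype or held either of 2 chains. These were the commonest heavy or beta chain and the commonest light or alpha chain found with it. In BCR mice a near match to either chain also sufficed. A near match had the same V and J segments, the same CDR3 length and at most 10% difference in CDR3. In mouse 33 the clone so defined held 1101 cells and the largest clonotype 412. No doublet caller was run. Removing cells with at least 2 UMIs of T cell genes and at least 2 of B cell genes was an alternative.

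Raw counts were summed per mouse and population and tested across mice with edgeR 4.0.16 (quasi-likelihood test, TMM scaling, filter on low counts, Benjamini-Hochberg adjustment over all genes tested, threshold 0.05), with mouse as a block where a mouse gave both populations. The populations of a mouse came from 1 nodule and library, and their deviations correlated at 0.19 to 0.43, best with the own mouse in 7 of 7. Alternatives used DESeq2 1.42.0 (R 4.3.3), other scalings, filters, references and clone definitions. On simulated counts, edgeR recovered 29% of 2-fold and 97% of 4-fold changes between clones and reference T-like cells, and 5% and 65% between B and T clones. All simulations gave every gene the same dispersion and held no effect of mouse, so these shares need not hold for the data. Replicates were separate mice. The 10 genes and all lists were chosen with earlier results of these data known, and genes of a list were named where they passed the threshold, by size of change, up to 4 per list. Receptor sequences were used only to define clones.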

Additional observations from a re-analysis of the deposited data

Results flagged for a closer look

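Of 20 groups of 5 mice, 4 held a value far from the rest by Dixon's test at 95%, each the highest of its group. The test flags about 5% of groups by chance only where values are normally distributed, and it was run here on CPM without log scaling. The groups share mice and the rate over all genes was not computed, so the 4 cannot be read as an excess. Chac1 stood at 11.6 CPM in the clone of mouse 27, against 0.514 to 2.57 CPM in the other B clones. Sesn2 stood at 20.9 CPM in the clone of mouse 33, against 5.14 to 7.33 CPM. Atf3 stood at 169.3 CPM in the clone of mouse 29, against 15 to 32 CPM, and at 91.8 CPM in its cells of B-like clusters. Ppp1r15a stood at 2240.8 CPM in the reference T-like cells of mouse 31, against 252.8 to 685.7 CPM in the other BCR mice.

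Outside the 10 genes, 3 listed genes differed between TCR and BCR mice in the contrast of clone with reference T-like cells, by an edgeR interaction term (log2, TCR minus BCR). Over all genes tested, 270 of 11657 (2.32%) did. The 3 were 2 of 21 unfolded protein response genes and 1 of 19 dissociation and immediate early genes, with 0 in the other lists. Syvn1, an endoplasmic reticulum ubiquitin ligase, had -2.62 (adjusted p = 0.0113), with 31.1 to 39.2 CPM in B clones, 8.85 and 12.1 CPM in T clones and 6.61 to 15.3 CPM in reference cells. Herpud1, of the same degradation pathway, had -2.51 (edgeR adjusted p = 0.0266), with 83.4 to 219.1 CPM in B clones, 28.2 and 39.4 CPM in T clones and 30.6 to 58.2 CPM in reference cells. Hspa1b had 5.23 (edgeR adjusted p = 0.0361), with 0.229 to 42.1 CPM in B clones, 522.0 and 561.8 CPM in T clones and 4.09 to 2419.9 CPM in reference cells.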

How the results depend on the processing

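Of the fold changes of the 10 genes under alternatives, 449 kept their direction and side of the threshold, 26 moved past it, 13 lost it and 34 changed sign. No value that changed sign had passed the threshold before. For all these the cause was not tested, beyond the fewer genes or samples that some settings leave. Settings on clusters of the own lineage, exact receptor chains and at least 10 reference cells were chosen after seeing the data.

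Between clones and reference T-like cells, the count of genes past the threshold (2120) was 4582 by DESeq2, 286 in cells of 1000 to 5000 UMIs, 729 against all uncalled cells, 1347 with clone cells in clusters of their lineage, and 499 to 3056 with a mouse left out. Without the replicate block it was 941. Atf4 turned to -0.0022 with the authors' largest clonotype, -0.13 in cells of 1000 to 5000 UMIs and -0.03 against all uncalled cells. Ddit3 turned, under those 3 settings, to -0.04, -0.05 and -0.26, to -0.01 with T cells picked by marker UMIs and to -0.02 in own-lineage clusters. Against all uncalled cells, Sesn2 turned to -0.49, Ddit4 to 0.03 and Slc7a11 to -3.50, and Slc7a11 to -1.95 with T cells picked by marker UMIs. Leaving out a mouse gave -0.07 to 0.18 for Atf4 and -0.25 to 0.18 for Ddit3, with Atf4 negative without mouse 27 and Ddit3 without mouse 27 or 34.

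Between B clones and other BCR-called B-like cells (15 genes), the count was 137 by DESeq2, 165 by plain library size, 1 without receptor, hemoglobin and mitochondrial genes, 201 with no filter, 25 with doublets removed, 2 with exact chains, and 0 without the replicate block. With at least 10 reference cells it was 74, 76 in own-lineage clusters, 0 without the block, and 201, 267, 47 and 102 without mouse 29, 31, 33 or 34. Asns turned to -0.0038 by DESeq2, -0.04 with exact chains and, with at least 10 reference cells, -0.32, -0.25 without the block, -0.31 in own-lineage clusters, and -0.75, -0.22 and -0.35 without mouse 29, 31 or 34. With 2 mice, none could be left out.

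Between T clones and other T-like cells (0 genes), the count was 235 by DESeq2, 264 with no filter and 25 with exact chains. Trib3 turned to -0.29 and Slc7a11 to -0.62 in own-lineage clusters, and Sesn2 to -0.38 in cells of 1000 to 5000 UMIs. Between B and T clones (1022 genes), it was 3152 by DESeq2, 1863 in own-lineage clusters and 178 to 1484 with a mouse left out, which for mouse 30 or 32 leaves 1 T clone assumed to vary like the B clones. Asns turned to 0.26 both in cells of 1000 to 5000 UMIs and in own-lineage clusters, and Sesn2 to -0.13 by plain library size. Leaving out a mouse gave -1.23 to 0.59 for Asns, -0.17 to 1.41 for Chac1, -0.47 to 1.11 for Sesn2 and -1.24 to 0.55 for Ddit4. For the difference between TCR and BCR mice (270 genes), the count was 1054 by DESeq2, 451 with no filter, 479 in cells of 1000 to 5000 UMIs and 0 to 301 with a mouse left out.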
